A study of Salmo salar with 54 samples.

Results

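fam20a is 1 of the 18901 genes measured by RNA sequencing in Atlantic salmon (Salmo salar) primary hepatocytes exposed to arsenic, and GeneID:106589597's row of the deposited table holds its values. The gene was chosen on its own dose differences: its level moved one way at low arsenic doses and the other way at high ones, each dose being set against the control of its own plates. All values of fam20a, those of unexposed cells included, are therefore given as descriptions, without a test. Tests are given for the other genes of the same pathway and for the genes that lie beside it.

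Hepatocytes were isolated by collagenase perfusion from 6 male fish and grown on 3-dimensional scaffolds in medium with fetal bovine serum. They were then exposed for 48 h to arsenite (AsIII, inorganic trivalent arsenic) or to AsSug, an arsenosugar with a glycerol side group, in which the arsenic is bound to carbon, with separate plates per compound. The AsIII plates held an unexposed control, 0.1, 1 and 3 µM. The AsSug plates held an unexposed control of their own, 5, 10, 50 and 250 µM. Each of these 9 groups held 1 library from each of the 6 fish, 54 libraries in all, so a fish is a replicate and is present in every group. No genetic alteration is labelled in any group, and every library came from cells of male fish in culture. The sources used here do not say whether control wells received the solvent of the stocks.

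FAM20A is a member of a small family of kinase-like proteins that work in the lumen of the Golgi and are secreted. In mammals it lacks kinase activity of its own and binds FAM20C, the kinase that phosphorylates secreted proteins such as those of milk, bone and blood plasma, and raises its activity. It is best known in humans for its part in tooth enamel formation and in keeping calcium salts out of the kidney. Its role in fish liver cells is not described here.

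The 250 µM AsSug libraries were shallow, with 0.898 to 5.38 M reads and 207 to 921 genes without a read, against 8.79 to 24.0 M reads and up to 39 such genes in the other 48 libraries. According to the labels, the RNA integrity of the 250 µM samples was also lower than that of all other samples. These 6 libraries formed a numbered library series of their own in the file header, the AsIII libraries formed another, and the remaining AsSug libraries formed the third. Compound, plate and library series therefore cannot be told apart between AsIII and AsSug, nor can dose and library series at 250 µM. Genes of this and the later lists were sought by gene symbol alone, so a copy under another name was not counted as measured. Of 17 listed hepatocyte markers 8 were measured, and their summed level was 351122 to 471578 normalised reads in AsIII control libraries and 327336 to 481983 in AsSug control libraries. Most of it was albumin (alb2) and apolipoprotein A-I (apoa1). These are bulk samples, in which fewer cells of a type and less RNA per cell cannot be told apart.

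fam20a was present in all 54 libraries, with 5 to 837 reads each, and passed the filter on low values in every fit. Levels are given as normalised reads, which are reads divided by 1 size factor per library. At the lowest concentrations of both compounds fam20a was somewhat above the control of the same plates. At 1 and 3 µM AsIII it was 19.4-fold and 20.4-fold below its control, and at 250 µM AsSug it was 3.78-fold below. The 3 AsSug concentrations between 5 and 50 µM gave means between 417 and 454 normalised reads.

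**Figure D1:**
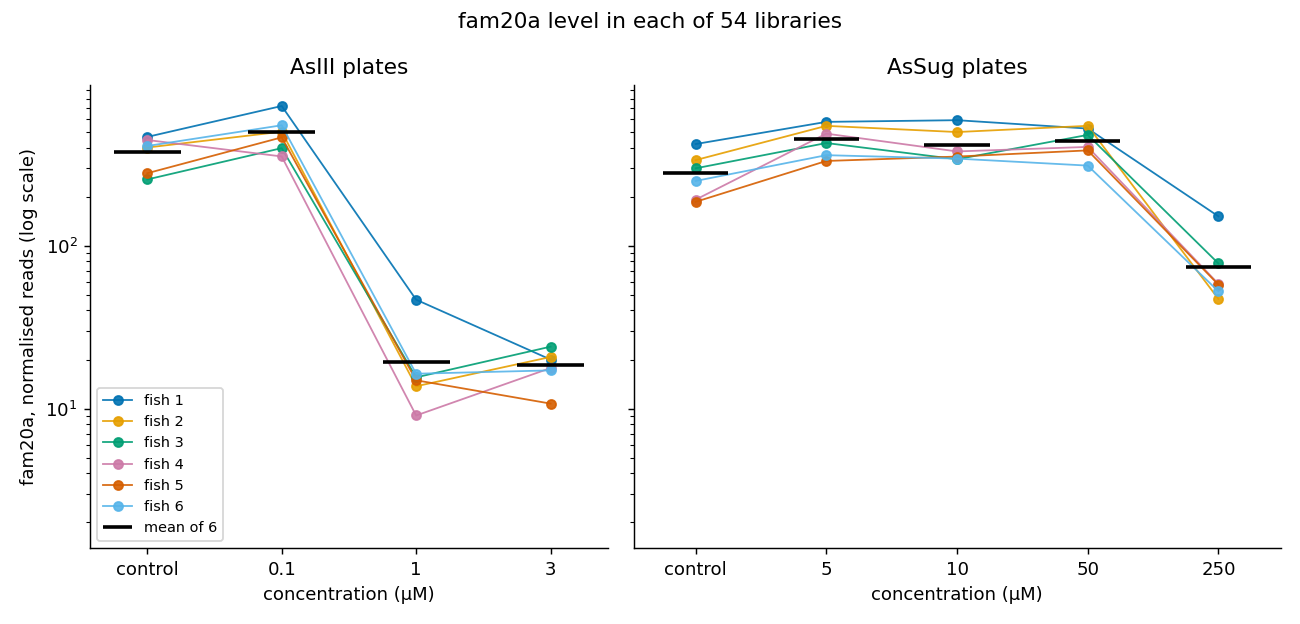
fam20a level in normalised reads (vertical log axis) in each of 54 libraries, by concentration in µM on the AsIII plates (left) and the AsSug plates (right). Each coloured line joins the libraries of 1 fish and black bars are the means of 6 fish. The libraries at 1 and 3 µM AsIII lie between 9.07 and 46.6, under every other library of the AsIII plates.

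At 0.1 µM AsIII fam20a ran from 353 to 719.9 normalised reads with a median of 481, against 255 to 465 with a median of 405 in AsIII control cells. The group means were 497 ± 130 and 375 ± 87.9 (SD, n = 6 fish each). The ranges of these groups overlapped. The level was higher at 0.1 µM in 5 of 6 fish, by 0.32 to 0.73 on the log2(value + 1) scale, and lower by 0.33 in fish 4. The estimate over fish was 0.40 ± 0.21 (log2, SE of the limma fit), which stood 468th from the highest of 18899 genes. The within-fish differences had an SD of 0.39. This SE, like those below, uses a spread pooled over the groups of a fit and drawn towards other genes. It can be smaller than the spread of fam20a itself would give.

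At 1 µM AsIII fam20a had 9.07 to 46.6 normalised reads with a median of 15.2, against 255 to 465 in AsIII control cells. At 3 µM it had 10.7 to 24.0 with a median of 18.9, against the same control. Every library at 1 and 3 µM was below every control library. The mean was 19.4 ± 13.6 at 1 µM, which is 5.16% of the control mean, and 18.4 ± 4.47 at 3 µM, which is 4.90% (SD, n = 6).

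Within fish the difference at 1 µM ran from -5.47 to -3.29 and that at 3 µM from -4.57 to -3.36 on the log2(value + 1) scale. The estimates were -4.36 ± 0.21 and -4.28 ± 0.21 (log2, SE), where the within-fish differences had SDs of 0.75 and 0.47. In both comparisons fam20a had the lowest estimate of all 18899 genes, where the median gene lay at -0.01 and -0.02. Fish 4 had the largest difference at 1 µM and fish 1 the smallest. Without fish 1 the estimate at 1 µM was -4.58.

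The ranges at 3 and 1 µM overlapped, and the difference between these doses was not tested. At 3 µM 4 fish had more and 2 had less than at 1 µM, with a mean difference of 0.08 (SD 0.78, n = 6) on the log2 scale. The spread between fish was wide at 1 µM, with a coefficient of variation of 70.2%, and 24.3% at 3 µM. The reads behind these levels were few, 140 over the 6 libraries at 1 µM and 115 at 3 µM, against 2881 in the 6 control libraries. Counting of so few reads alone would give a coefficient of variation of 20.98% at 1 µM and 23.1% at 3 µM. These counting values take reads as independent molecules and cover counting error only. At 1 µM fish 1 (46.6) was far above the next fish (16.4).

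On the AsSug plates fam20a ran from 331 to 575 normalised reads at 5 µM (median 457), against 186 to 420.4 in AsSug control cells (median 274). At 10 µM it ran from 339 to 589 (median 365) and at 50 µM from 310.0 to 544 (median 441). The 3 dosed groups overlapped widely with each other and also reached into the range of the control, whose highest library, fish 1, was at 420.4. The means were 280.1 ± 90.2 in control, 454 ± 98.7 at 5 µM, 417 ± 103 at 10 µM and 441 ± 90.0 at 50 µM (SD, n = 6 each).

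Although the ranges overlapped, each of the 6 fish had more fam20a at 5, 10 and 50 µM AsSug than in its own control. The within-fish differences ran from 0.45 to 1.34 at 5 µM, from 0.18 to 0.98 at 10 µM and from 0.31 to 1.07 at 50 µM (log2). Their SDs were 0.33, 0.30 and 0.33. Fish 4 showed the largest difference at all 3 concentrations. The estimates were 0.73 ± 0.09, 0.60 ± 0.09 and 0.69 ± 0.09 (log2, SE), and stood 30th, 35th and 34th from the highest of 18818 genes. The ratios of group means, a separate measure, were 1.62, 1.49 and 1.57. The 3 comparisons share the 6 control libraries, so a low value of fam20a in these controls enters all of them.

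In cells given 250 µM AsSug fam20a had 47.1 to 151 normalised reads with a median of 57.9, against 186 to 420.4 in AsSug control cells with a median of 274. The 2 ranges did not overlap, and all 6 fish were lower at 250 µM. The mean was 74.1 ± 39.3 (SD, n = 6), which is 26.5% of the control mean. The within-fish differences ran from -2.81 to -1.47 and the estimate was -1.97 ± 0.20 (log2, SE). It stood 1326th from the lowest of 18756 genes, in a comparison where the median gene was at -0.20. These values rest on 5 to 75 reads per library, 191 in all, against 1799 in the 6 control libraries. Scaling by library totals, which moved the median gene to 0.09, gave -1.67.

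**Figure D2:**
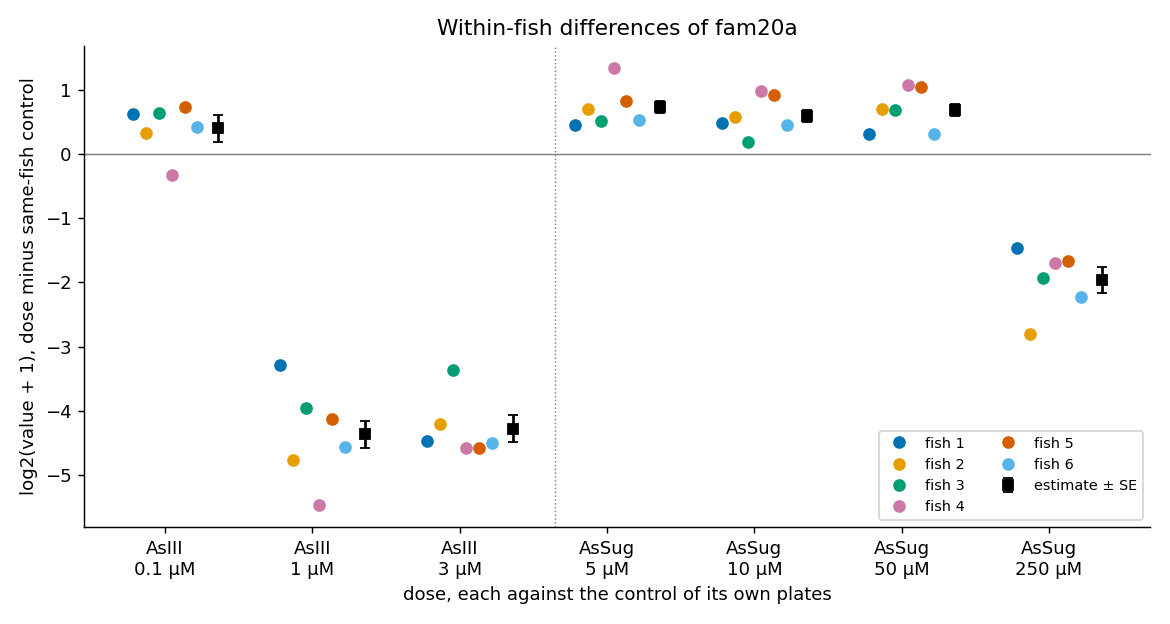
Difference of fam20a between each dose and the control of the same fish and plates, on the log2(value + 1) scale (vertical axis), for 3 AsIII and 4 AsSug concentrations in µM. Coloured points are the 6 fish and black squares are the limma estimate with its standard error. All 6 fish are above 0 at 5, 10 and 50 µM AsSug and below 0 at 1 and 3 µM AsIII and 250 µM AsSug, and at 0.1 µM AsIII fish 4 alone is below 0.

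Ordered by median, the groups ran from 0.1 µM AsIII (481) over 5 µM AsSug (457), 50 µM AsSug (441), AsIII control (405), 10 µM AsSug (365), AsSug control (274) and 250 µM AsSug (57.9) to 3 µM AsIII (18.9) and 1 µM AsIII (15.2). Of the 36 pairs of groups 16 had overlapping ranges. The first 6 groups in this order overlapped each with its neighbour, as did the last 2. The 250 µM AsSug group overlapped neither with AsSug control above it nor with 3 µM AsIII below it.

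The control values entered every dose difference on which fam20a was chosen, so their own difference is a description. AsIII control cells held 255 to 465 normalised reads of fam20a and AsSug control cells 186 to 420.4. The AsIII control was higher in 5 of 6 fish, by up to 1.21 (log2, fish 4), and lower by 0.23 in fish 3. The ranges overlapped, and the estimate was 0.45 ± 0.12 (log2, SE), where the within-fish differences had an SD of 0.50. In this comparison 11 genes were called, 0.0588% of those tested, all lower in AsIII control (limma).

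Set against the AsIII control instead of their own, the mean within-fish differences were 0.28 at 5 µM AsSug, 0.15 at 10 µM and 0.24 at 50 µM (log2). They were positive in 5, 4 and 4 of 6 fish. This comparison runs across plates and library series and was added after the values had been seen. All 6 fish were above control at each of these doses when the control of the same plates was used.

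The unexposed levels of a fish on the 2 sets of plates were set side by side. Over the 6 fish Pearson's r was 0.284 and Spearman's rho was 0.314. Without fish 1 and fish 5, the farthest from the median of the AsSug control, r was -0.500. Across all 9 groups fish 1 had the highest fam20a level in 7 groups and was among the highest 2 in 8. Fish 5 was lowest in 3 groups. Fish 2 was highest at 50 µM AsSug and fish 3 at 3 µM AsIII.

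Of the other kinases of the secretory pathway that were listed, 3 of 26 were found by symbol: fam20b (GeneID 106613959), pomk and dipk2ab. None of them was called at 0.1 µM AsIII or at 5, 10 or 50 µM AsSug. Of all genes only 0.0106%, 0.106%, 0.0159% and 0.563% were called at these doses (limma). In mammals FAM20B phosphorylates the xylose that starts glycosaminoglycan chains and POMK phosphorylates a mannose on dystroglycan, while the function of dipk2ab in salmon is not annotated here. fam20c, the partner kinase in mammals, is not analysed here.

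fam20b rose at 1 µM AsIII, where it had 86.4 to 117 normalised reads (median 95.3), against 54.8 to 82.4 in AsIII control cells (median 72.4). The groups did not overlap. The change was 0.49 ± 0.13 (log2, SE; limma adjusted p = 0.0034), higher in 6 of 6 fish. At 3 µM it was 0.25 ± 0.13 (adjusted p = 0.0991), which passed without fish 1 (0.36, adjusted p = 0.0148). Under 250 µM AsSug it was at -0.58 ± 0.37 (adjusted p = 0.176), with values from 9.41 to 130.5 that spread on both sides of the control range of 64.8 to 74.2.

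pomk fell with AsIII. It had 67.1 to 97.3 normalised reads at 1 µM and 40.7 to 73.7 at 3 µM, against 110 to 136 in AsIII control cells, so that neither dosed group overlapped with control. The changes were -0.61 ± 0.21 (limma adjusted p = 0.0159) and -1.13 ± 0.21 (adjusted p = 4.55e-05), lower in 6 of 6 fish at both doses. The call at 1 µM did not hold without fish 2 (adjusted p = 0.0545) or without fish 5 (adjusted p = 0.0630). pomk under 250 µM AsSug was at -0.50 ± 0.26 (adjusted p = 0.0998), and passed without fish 1 (adjusted p = 0.0350) or fish 2 (adjusted p = 0.0277). dipk2ab had 7.90 to 28.2 normalised reads over all groups and was not called at any dose.

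**Figure D3:**
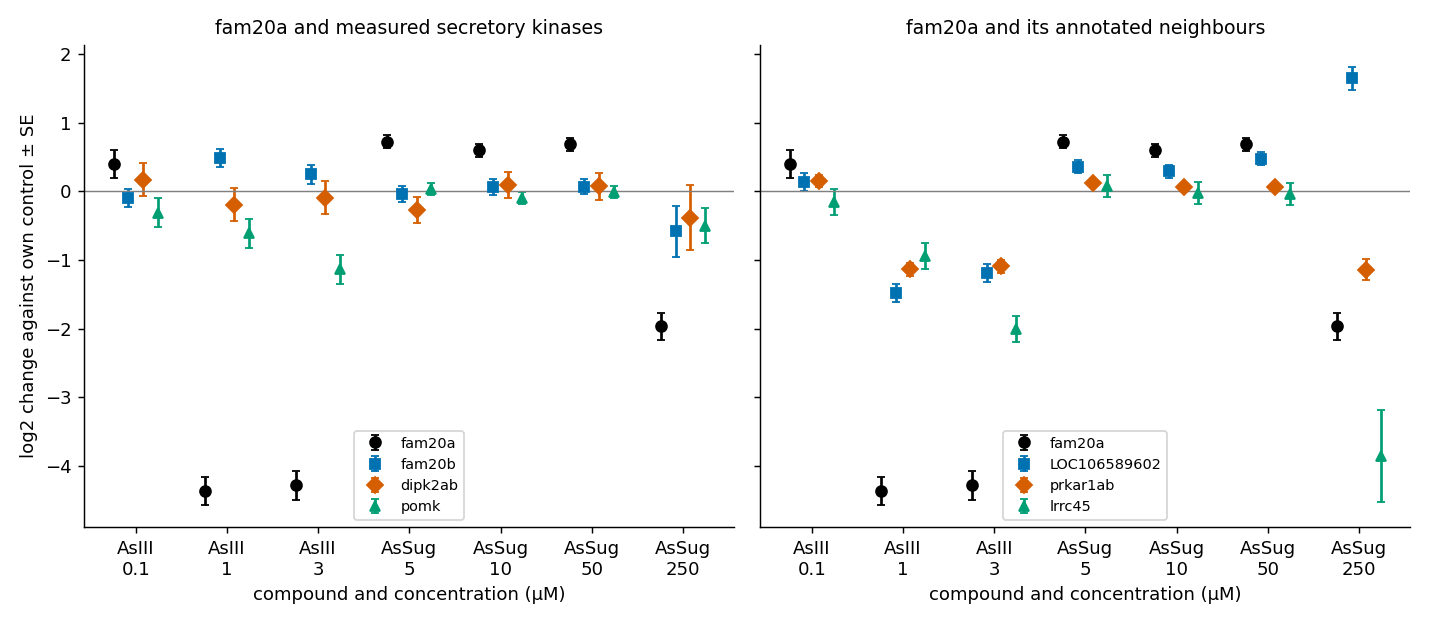
Change against the control of the same plates (vertical axis, log2, points with standard errors of the limma fit) at 3 AsIII and 4 AsSug concentrations in µM, for fam20a and the 3 other measured secretory kinases (left) and for fam20a and its 3 measured annotated neighbours (right). At 1 and 3 µM AsIII fam20a lies at -4.36 and -4.28, below all other genes shown, and LOC106589602 is the one gene above 0 at 250 µM AsSug.

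Beside the 3 kinases, 55 genes of 4 further lists were followed: enzymes of the glycosaminoglycan linker, secreted phosphoproteins, ER and Golgi trafficking, and mineral and phosphate handling. Of these 58 genes, 57 of which were tested on the AsSug plates, none was called at 0.1 µM AsIII, where 0.0106% of all genes were called, nor at 5, 10 or 50 µM AsSug, where 0.106%, 0.0159% and 0.563% were (limma). At 0.1 µM AsIII 8 of 58 had an unadjusted p below 0.05 (limma), where 1473 of all 18899 genes did. At 5, 10 and 50 µM AsSug it was 2, 2 and 3 of 57, where 1323, 1112 and 2028 of all 18818 genes did. edgeR and DESeq2 also called 0 of the listed genes in each case. At 1 µM AsIII 35 of 58 were called, 12 higher and 23 lower, which is 60.3% against 57.0% of all genes (29.8% higher and 27.3% lower). At 3 µM it was 37 of 58, 12 higher and 25 lower, which is 63.8% against 71.1% of all genes (36.0% higher and 35.1% lower). On the AsSug plates 41 of 57 were called at 250 µM, 4 higher and 37 lower, which is 71.9% against 63.2%. Over all genes 26.7% were called higher and 36.5% lower at 250 µM. These are 5000 higher and 6846 lower genes, or 6450 and 4916 with scaling by library totals. The counts at 1 and 3 µM AsIII hold slc20a1a, which passed the filter on low values through dosed libraries alone.

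The glycosaminoglycan linker list had 3 measured members. b4galt7, the galactosyltransferase that adds the next sugar after xylose, rose by 0.55 ± 0.15 at 1 µM AsIII (limma adjusted p = 0.00397) and by 1.35 ± 0.15 at 3 µM (adjusted p = 5.17e-08). It averaged 129.5 ± 6.58 normalised reads at 3 µM and 51.1 ± 10.6 in AsIII control cells (SD, n = 6 each). uxs1, which makes the UDP-xylose donor, fell by 0.54 ± 0.13 at 3 µM (adjusted p = 0.00112). Under 250 µM AsSug both fell, with log2 changes of -2.66 ± 0.54 for uxs1 (adjusted p = 0.000546) and -1.82 ± 0.59 for b4galt7 (adjusted p = 0.0141), and both were at 0 in a library there, so the size depends on the added 1. The list's median log2 change was -0.05, -0.00 and -1.82 at 1 µM AsIII, 3 µM AsIII and 250 µM AsSug, where all genes had -0.01, -0.02 and -0.20.

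The list of secreted phosphoproteins had 16 measured members, most of them plasma proteins, with the ER oxidase ero1a and the Golgi nucleobindin nucb1 beside them. At 1 µM AsIII 3 were called higher, nucb1 among them, and 9 lower, where 29.8% of all genes were called higher and 27.3% lower. At 3 µM 1 was higher and 8 lower, against 36.0% and 35.1% of all genes, and at 250 µM AsSug 1 and 13, against 26.7% and 36.5%. Their median log2 changes were -0.28, -0.24 and -1.29 at these doses, where all genes had -0.01, -0.02 and -0.20. apoeb, an apolipoprotein E, fell at all 3 doses, with log2 changes of -1.498 ± 0.18, -2.72 ± 0.18 and -3.04 ± 0.18 and a largest limma adjusted p of 2.96e-07. The insulin-like growth factor binding protein igfbp-1b1 had changes of -2.45 ± 0.13 at 3 µM AsIII and -2.64 ± 0.13 at 250 µM AsSug (adjusted p = 1.64e-13 and 4.16e-10). Apolipoprotein B (apoba) had changes of -1.07 ± 0.11 at 1 µM and -0.99 ± 0.11 at 3 µM AsIII (adjusted p = 3.92e-08 and 5.21e-08).

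Other members were less even. Fibronectin (fn1a) was higher by 0.66 ± 0.21 at 1 µM AsIII (adjusted p = 0.0102, limma; 0.0714 without fish 4) and fell by 1.43 ± 0.21 at 3 µM (adjusted p = 2.68e-06). Fibrinogen alpha (fga) fell by 0.64 ± 0.22 at 1 µM (adjusted p = 0.0168), a call that did not hold without fish 2 (0.0588) or without fish 4 (0.0578). With 250 µM AsSug, igfbp1a changed by -2.16 ± 0.26 and the apolipoprotein B gene apobb.1 by -2.07 ± 0.18 (adjusted p = 3.53e-06 and 1.39e-07). apoba and fga are also among the hepatocyte markers, and fn1a among those of stellate cells and fibroblasts.

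ER and Golgi trafficking, the route by which FAM20 proteins and their substrates leave the cell, had 30 measured genes. At 1 µM AsIII 5 were called higher and 10 lower, where 29.8% and 27.3% of all genes were (57.0% in either direction). At 3 µM 7 were higher and 12 lower, against 36.0% and 35.1% of all genes (71.1%). At 250 µM AsSug it was 3 and 17, against 26.7% and 36.5% (63.2%). The list's median log2 changes were -0.18, -0.22 and -0.76, against -0.01, -0.02 and -0.20 over all genes. mia3, which helps to load bulky cargo at ER exit sites, changed by -1.07 ± 0.12 at 1 µM AsIII and by -3.03 ± 0.37 at 250 µM AsSug. sec16a, a scaffold of the same exit sites, rose by 0.51 ± 0.09 at 1 µM and by 0.75 ± 0.09 at 3 µM AsIII. mbtps1, the Golgi site-1 protease, changed by -0.53 ± 0.09 at 1 µM and by -1.47 ± 0.09 at 3 µM.

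The Golgi matrix gene golgb1 changed by -0.67 ± 0.15 at 1 µM AsIII. At 3 µM golga2, another Golgi matrix gene, changed by 0.81 ± 0.09 and the SNARE gene stx5 by -0.76 ± 0.12. After 250 µM AsSug the changes were -2.31 ± 0.23 for the cargo receptor tmed10, -1.98 ± 0.20 for calnexin (canx) and -1.80 ± 0.20 for the disulphide isomerase pdia3. The largest limma adjusted p among these changes of trafficking genes was 0.000866, and each had the same direction in 6 of 6 fish.

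Mineral and phosphate handling had 6 measured members. slc20a1a, a sodium-phosphate importer, averaged 40.3 ± 14.8 and 67.0 ± 17.1 normalised reads at 1 and 3 µM AsIII and 4.07 ± 1.81 in AsIII control cells (SD, n = 6 each). No control library reached the filter value of 10, so the gene was kept through the dosed libraries where it is high and its calls are not given. Its fitted changes of 3.06 ± 0.25 and 3.81 ± 0.25 depend on the added 1, with 2.29 to 3.26 and 2.98 to 4.00 over the alternatives tried. cyp24a1, the enzyme that inactivates vitamin D, changed by -0.66 ± 0.09 and -3.21 ± 0.09 at 1 and 3 µM AsIII and by -2.06 ± 0.16 at 250 µM AsSug, with a largest adjusted p of 1.44e-06. Beside slc20a1a, the 5 other members were all called at 3 µM AsIII, 2 higher and 3 lower. Of all genes 36.0% were called higher and 35.1% lower at that dose. enpp1, which makes pyrophosphate, rose by 0.43 ± 0.13 and 1.70 ± 0.13 at 1 and 3 µM AsIII (adjusted p = 0.00584 and 5.46e-11).

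ggcx, the vitamin K-dependent carboxylase, was lower by 0.45 ± 0.17 at 1 µM AsIII (adjusted p = 0.0294, limma), a call that did not hold without fish 2, 4 or 6 (adjusted p = 0.135, 0.0609 and 0.0869) or without the fish term of the model (adjusted p = 0.0781). At 3 µM ggcx was called lower by 0.45 ± 0.17 (adjusted p = 0.0218), which did not hold in the same 4 settings (adjusted p between 0.0609 and 0.0940). Under 250 µM AsSug ggcx fell by 1.89 ± 0.18. vkorc1, which recycles vitamin K, changed by -0.51 ± 0.09 at 3 µM AsIII and by -2.59 ± 0.21 at 250 µM AsSug. Klotho (kl), a co-receptor of phosphate-regulating FGF23 in mammals, fell by 2.14 ± 0.18 at 250 µM. At 3 µM AsIII kl was called higher by 0.28 ± 0.11 (adjusted p = 0.0324), which did not hold with library totals (adjusted p = 0.111), without the fish term (0.0618) or without fish 1, 2, 3 or 5 (0.0549 to 0.125). The largest adjusted p of these vkorc1, kl and 250 µM ggcx changes was 2.4e-05. The median log2 change was -2.06 over the 5 members tested at 250 µM AsSug, against -0.20 over all genes. There slc20a1a was below the filter on low values. No median is given at 1 and 3 µM AsIII, because it would include slc20a1a.

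In the reference annotation the protein-coding genes next to fam20a are prkar1ab and, beyond it, LOC106589602 on one side, and lrrc45 and rac3b on the other. rac3b is not analysed here. prkar1ab encodes a regulatory subunit of protein kinase A and lrrc45 a leucine-rich repeat protein linked to centrosomes in human cells. LOC106589602 has no gene name in that annotation. prkar1ab and LOC106589602 overlap each other there and fam20a overlaps neither. The sources do not state whether counting used the strand, so reads of these 2 overlapping genes may not be told apart.

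The 3 measured neighbours were all called lower at 1 and 3 µM AsIII, where 27.3% and 35.1% of all genes were, with changes nearer to 0 than those of fam20a. LOC106589602 had 90.4 to 181 normalised reads at 1 µM and 98.8 to 229.9 at 3 µM, against 228 to 424 in AsIII control cells, with changes of -1.48 ± 0.13 and -1.19 ± 0.13 (limma adjusted p = 3.63e-09 and 4.55e-08). prkar1ab had 591 to 941 at 1 µM and 680.0 to 868 at 3 µM, against 1331 to 1837 in control, with changes of -1.14 ± 0.09 and -1.09 ± 0.09. lrrc45 had 11.4 to 31.7 at 1 µM and 5.21 to 10.7 at 3 µM, against 28.7 to 39.1 in control, with changes of -0.94 ± 0.19 and -2.01 ± 0.19. All 3 were lower in 6 of 6 fish at both doses, and the largest adjusted p was 0.000223. At 3 µM lrrc45 averaged 7.93 normalised reads, under the filter value of 10, so it was kept mainly through the other groups of the fit. Its change there ran from -2.13 to -1.61 over the alternatives tried.

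On the AsSug plates LOC106589602 was called higher at 50 µM, with 246 to 537 normalised reads against 216 to 449 in AsSug control cells, a change of 0.48 ± 0.09 (limma adjusted p = 0.00908) in 6 of 6 fish, where 0.372% of all genes were called higher. The call did not hold without fish 2 (adjusted p = 0.0668), without fish 5 (0.0628) or without the fish term (0.883). At 5 and 10 µM it was at 0.36 ± 0.09 and 0.29 ± 0.09, higher in 6 of 6 fish and not called (adjusted p = 0.184 and 0.648). At 250 µM, where fam20a was lower, LOC106589602 rose to 621 to 1249 normalised reads, by 1.65 ± 0.17 (adjusted p = 7.55e-07). prkar1ab fell by 1.14 ± 0.15 at 250 µM (adjusted p = 9.17e-06). lrrc45 averaged 2.07 ± 2.38 normalised reads at 250 µM, with at most 5.08 in a library, against 32.1 ± 6.91 in AsSug control cells (SD, n = 6 each). No library at 250 µM reached the filter value of 10, so the gene was kept through its control libraries alone and no call is given for it there. Neither prkar1ab nor lrrc45 was called at 5, 10 or 50 µM.

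Genes with a dose profile like that of fam20a were ranked by the Pearson correlation of their within-fish log2 differences over the 42 dosed libraries, among 14177 genes with a mean of at least 50 normalised reads. The libraries share 6 fish and 2 sets of controls, so r is a description of likeness. The median gene had r = 0.01, the 99th percentile was 0.868, and 63 genes exceeded 0.9. The 8 highest were LOC100136426 (0.973), LOC106588972 (0.964), the lysophosphatidic acid receptor gene lpar6a (0.963), LOC106577312 (0.960), LOC106568361 (0.956), cpt1b (0.955), ywhah (0.949) and LOC106605146 (0.946). cpt1b encodes a carnitine palmitoyltransferase of fatty acid entry into mitochondria and ywhah a 14-3-3 protein. Without the 250 µM libraries the 8 values were 0.956 to 0.981, and over the 24 AsSug libraries alone 0.867 to 0.942. The 8 genes were picked over the 42 libraries that hold these subsets, so high values there follow in part from the choice.

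LOC100136426, the gene most like fam20a, also shared the direction of its low-dose differences. It was at 0.39 ± 0.12 at 0.1 µM AsIII and at 0.40 ± 0.07, 0.26 ± 0.07 and 0.42 ± 0.07 at 5, 10 and 50 µM AsSug (log2, SE), above control in 6 of 6 fish at each of these 4 doses. At 1 and 3 µM AsIII it was at -2.08 ± 0.12 and -2.36 ± 0.12, and at 250 µM AsSug at -0.76 ± 0.22, below control in 6 of 6 fish. Its level was 12034.6 to 59087.5 normalised reads at 1 µM AsIII, against 67399 to 165002 in AsIII control cells, with no overlap.

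The other 7 were alike mainly at the high doses. They lay between -3.67 and -1.19 at 1 and 3 µM AsIII and between -1.47 and -0.65 at 250 µM AsSug, lower in 6 of 6 fish each time, and between -0.16 and 0.22 at the 4 low doses. Among them LOC106577312 came nearest to fam20a in size, with -3.48 ± 0.19 and -3.67 ± 0.19 at 1 and 3 µM AsIII. The 3 genes most opposite to fam20a were LOC106568988 (r = -0.965), LOC106562660 (-0.958) and LOC106577644 (-0.954). LOC106568988 had 1429 to 2087 normalised reads at 1 µM AsIII and 1004 to 1299.6 at 3 µM, against 42.8 to 58.6 in AsIII control cells, differences of 5.14 ± 0.14 and 4.49 ± 0.14. At 250 µM AsSug it was at 1.48 ± 0.24. No gene name for the LOC entries is given in the annotation used.

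**Figure D4:**
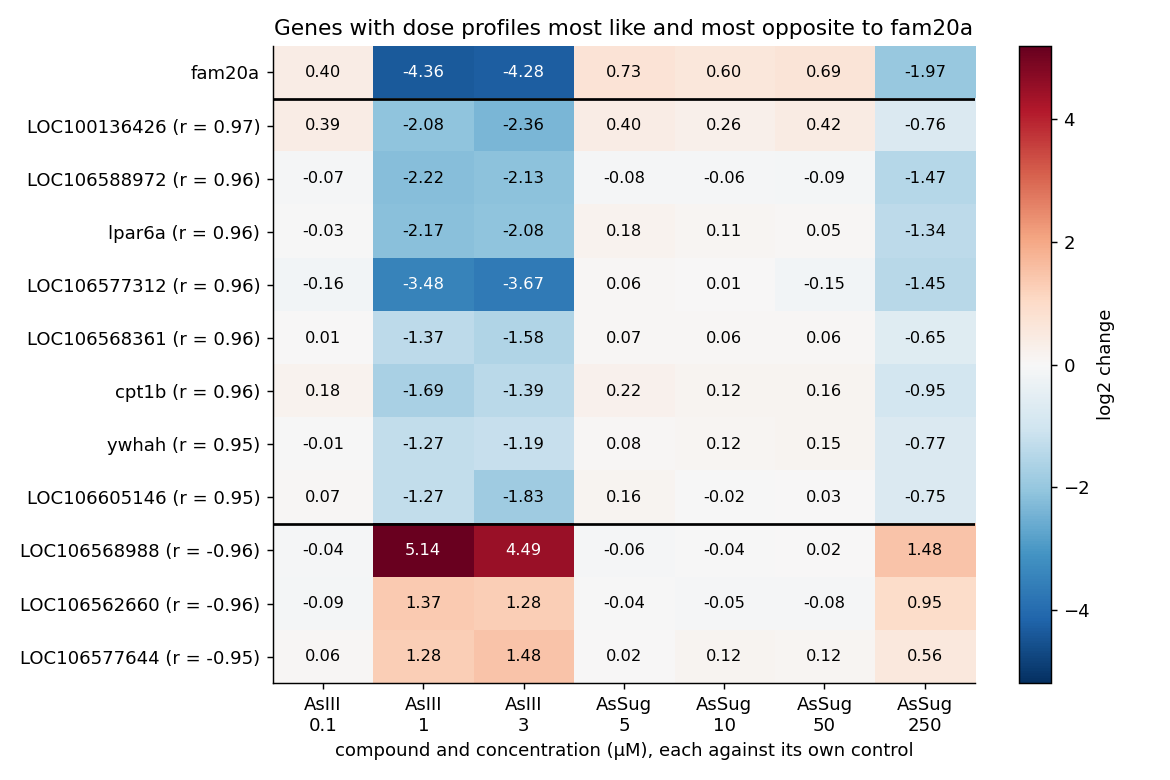
Log2 change against the control of the same plates (colour and printed value) at 3 AsIII and 4 AsSug concentrations in µM, for fam20a, the 8 genes with the highest and the 3 with the lowest correlation r with it over 42 dosed libraries. Below the first line, LOC100136426 is the one gene with values of 0.26 or more at all 4 low doses, where fam20a has 0.40 to 0.73.

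Markers of other cell types also changed at 1 and 3 µM AsIII and 250 µM AsSug, where 57.0%, 71.1% and 63.2% of all genes were called (limma). With so many genes called, calls of a few markers do not single out a cell type. Of 10 listed markers of stellate cells and fibroblasts 3 were measured, and their summed level was 982 to 1473 normalised reads at 1 µM AsIII and 1588 to 2116 at 3 µM, against 296 to 644 in AsIII control cells. Most of it was timp2, and of the other members acta2 was not called while fn1a was higher at 1 µM and lower at 3 µM. The same sum was 147 to 242 at 250 µM AsSug, against 295 to 693 in AsSug control cells. The hepatocyte sum was 263650 to 368978 at 1 µM AsIII and 296359 to 355677 at 3 µM, against 351122 to 471578 in AsIII control cells, with 6 of 8 markers lower and 0 higher at both doses, where 27.3% and 35.1% of all genes were lower. With 250 µM AsSug it was 113156 to 242843, against 327336 to 481983, with 3 markers higher and 4 lower, where 26.7% and 36.5% of all genes were.

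Other lists had 1 or 2 measured members, of which the more abundant one makes up most of a sum, so the members are also given singly. Over all genes 29.8%, 36.0% and 26.7% were called higher at 1 and 3 µM AsIII and 250 µM AsSug (limma). The shares called lower were 27.3%, 35.1% and 36.5%. Endothelial markers (2 of 9) summed to 247 to 327 at 1 µM and 409 to 547 at 3 µM AsIII, against 147 to 230.1 in AsIII control cells, and to 236 to 307 at 250 µM AsSug, against 181 to 221 in AsSug control cells. esamb was called higher at these doses (0.64, 1.4 and 0.57 on the log2 scale). kdr was at -0.72 and not called at 1 µM, except without fish 1 (adjusted p = 0.00964, limma), and was called lower at 3 µM (-1.13). At 250 µM kdr was called lower (-2.28), but not without fish 4 (-2.05, limma adjusted p = 0.0518). With any other fish left out kdr fell below the filter on low values at 250 µM and was not tested.

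Macrophage and granulocyte markers (2 of 6) summed to 1723 to 2370.0 and 1417 to 1905 at 1 and 3 µM AsIII, against 2499.9 to 3240.2 in control, and to 639 to 1586 at 250 µM AsSug, against 2488 to 3073. cd68 was called lower at these doses (-0.45, -0.82 and -1.51), whereas mpeg1.1 was called higher at 3 µM (1.11) and not at the others. Cholangiocyte markers (2 of 6) summed to 2280.4 to 2730.6 and 3039 to 3373 at 1 and 3 µM AsIII, against 2847 to 3527, and to 2112 to 2898 at 250 µM AsSug, against 2561 to 3271. jag1b was called higher at 3 µM (1.04) and 250 µM (2.69). anxa4 was called lower at 1 µM (-0.33) and at 250 µM (-0.43), there not with library totals (-0.13, adjusted p = 0.365, limma), with edgeR (0.0672) or without fish 2 (0.0508).

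The erythrocyte marker rhag (1 of 4) had 204 to 344 normalised reads at 1 µM and 222 to 356 at 3 µM AsIII, against 209.9 to 395 in AsIII control cells, and 509 to 729 at 250 µM AsSug, against 252 to 365 in AsSug control cells. It was called lower at 1 µM (-0.42, limma), but not without fish 2, 4 or 6 (adjusted p between 0.0714 and 0.0820). At 3 µM it was at -0.27 and not called, except with library totals, with only the groups compared or without fish 5 (adjusted p = 0.0112, 0.0418 and 0.0393), and at 250 µM it was called higher (0.96). No lymphocyte marker of 5 was found by its symbol. The hepatocyte marker cps1 and the endothelial marker kdr reached 0 in a library at 250 µM AsSug, and no measured marker did so elsewhere. No marker was called at 0.1 µM AsIII or at 5, 10 or 50 µM AsSug. Of all genes only 0.0106%, 0.106%, 0.0159% and 0.563% were called at these doses. The part of these changes in the fam20a values was not tested.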

How the data were processed

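RNA of 54 libraries was measured (9 groups, 6 fish). The deposited table holds a read signal: reads per gene, scaled by the authors with a single size factor for each library. HISAT2, Subread featureCounts and DESeq2 1.40.2 are named in the submitters' processing notes. No source used here gives the genome build, annotation, strand setting or treatment of reads shared between gene copies. Salmon carry many duplicated genes, so reads of a near-identical copy may be counted with a named gene. Dividing each column by its smallest step gave whole reads for 100% of values (tolerance 0.1 reads, largest deviation 0.0931). Names and gene neighbours came from the RefSeq table of Ssal_v3.1, matched for 18900 of 18901 identifiers. List members were sought by symbol, so copies that carry only a LOC entry were missed. Gene positions in that table were used only to find the neighbours and whether they overlap.

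Values were analysed as log2(value + 1) in R 4.3.3 by limma 3.58.1 with a mean-variance trend. A fit kept the genes that reached 10 normalised reads in 6 or more of its libraries. The added 1 shrinks differences of low genes. Fits held the 4 AsIII groups, the AsSug control with 5, 10 and 50 µM, 250 µM AsSug with its control, or the 2 controls. Fish was a term of each model because the labels give the fish of every library. After removal of group means, libraries of the same fish correlated more (median r across genes 0.234, 0.364 and 0.0963) than those of different fish (-0.0432, -0.0744 and -0.0296) in the AsIII, AsSug and 250 µM fits. Removal of group means by itself makes the r of different fish negative where that of the same fish is positive. The lowest same-fish r was -0.0797. Tests were two-sided, with Benjamini-Hochberg adjustment across every gene in the fit, and called below 0.05. P-values rest on how far within-fish differences vary between the 6 fish. This spread is pooled over the groups of a fit and drawn towards the trend across genes. The difference between the controls and their correlation over fish were planned as tests for fam20a. They are given without p because the control values entered the choice of the gene.

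Alternatives were library totals or TMM factors, an added 0.5 or 5, no filter, no fish term, edgeR 4.0.16 (quasi-likelihood) and DESeq2 1.42.0 on the recovered reads, only the groups compared, each fish left out, and the median over fish. The fits of the AsIII groups and of 250 µM AsSug were also run on simulated counts. Few genes changed in the simulation, unlike at the high doses here, so it gives no support to these fits. Genes named were fam20a, measured secretory kinases, up to 4 called members of each other list with the largest change at 1 and 3 µM AsIII and 250 µM AsSug, the 8 most like and 3 most opposite genes, and 2 annotated neighbours on either side. Markers, nucb1 and ero1a, and ggcx and kl at 3 µM AsIII were named outside this rule, after their values were seen. fam20a, the lists and the rule were chosen with earlier results of these data known.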

Additional observations from a re-analysis of the deposited data

Results flagged for a closer look

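Among 17 groups and sets of within-fish differences of fam20a, 3 held a fish beyond the limit of Dixon's test. The limit served only to flag fish for description, because the gene was chosen on these values. The 17 sets share fish and control libraries and mix levels with log2 differences. The 3 flagged sets therefore cannot be compared with a chance rate. Fish 1 stood above the other fish at 1 µM AsIII, with 46.6 normalised reads against 16.4 in the next fish, a gap of 0.806 of the whole range. Fish 1 also stood above the others at 250 µM AsSug, with 151 against 77.8, a gap of 0.706 of the range. Without fish 1 the log2 differences were -4.58 at 1 µM AsIII and -2.07 at 250 µM AsSug. Fish 3 had the smallest within-fish difference at 3 µM AsIII, -3.36 against -4.21 in the nearest fish, a gap of 0.698 of the range, and without it the difference was -4.47.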

How the results depend on the processing

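Because fam20a was chosen by the direction of its dose differences and every alternative reuses the same libraries, a kept direction is a description. The 7 dose differences of fam20a kept their direction under every alternative run. With 1 fish left out they ranged from 0.34 to 0.55 (0.1 µM AsIII), -4.58 to -4.14 (1 µM), -4.47 to -4.22 (3 µM), 0.60 to 0.78 (5 µM AsSug), 0.52 to 0.68 (10 µM), 0.61 to 0.76 (50 µM) and -2.07 to -1.80 (250 µM). Without the fish block the estimates were the same with larger errors, for example 0.73 ± 0.18 at 5 µM AsSug. In that setting 30, 35 and 41 of the pathway genes were called at 1 µM AsIII, 3 µM AsIII and 250 µM AsSug. Of all genes 52.8%, 67.6% and 61.3% were called there. An added 5 gave -4.07 and -4.01 at 1 and 3 µM AsIII. Left-out fish gave 26 to 44, 35 to 40 and 39 to 43 called pathway genes at 1 µM AsIII, 3 µM AsIII and 250 µM AsSug. Of all genes 50.7% to 63.8%, 67.2% to 74.6% and 57.6% to 61.5% were then called. The difference between the controls stayed positive (0.29 to 0.58 with a fish left out). The correlation of the controls over fish turned to -0.0505 without fish 1, -0.0175 without fish 5 and -0.500 without both, with a range of -0.0505 to 0.602 over single fish. The cause was not tested.

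Counts over all genes at the low doses were unstable. In place of 2, 20, 3 and 106 genes at 0.1 µM AsIII and 5, 10 and 50 µM AsSug, DESeq2 called 10, 34, 12 and 134, the fit without a fish block 1, 0, 0 and 0, and single fish left out 0 to 8, 7 to 38, 2 to 15 and 31 to 178. edgeR called 0 at 0.1 µM, library totals 0 there and 11 at 10 µM AsSug, TMM factors and an added 5 gave 0 at 0.1 µM, and the 2 groups alone gave 0 at 0.1 µM and 34 at 50 µM. Between the controls 11 genes became 0 without a fish block and 3 to 17 with a fish left out. The 250 µM AsSug libraries had the fewest reads in total. For fam20a itself the reads were fewest at 3 µM AsIII (115) and 1 µM AsIII (140), against 191 at 250 µM AsSug.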
